A study of Dunaliella salina with 18 samples.

Results

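Among 43236 assembled transcripts of the green alga Dunaliella salina, 126 kept their level for 4 h in the arm titled H2L and had lost at least 2-fold of it by 24 h. They were chosen by their own values, from the mean of 3 libraries per group plus 1. The mean at H2L 0h had to be at least 10, the means at 0h and 4h each at least 2 times that at 24h, and the 4h to 0h ratio between 0.67 and 1.5. In the arm titled L2H the 24h to 0h ratio had to be under 2, and transcripts with a mean of 1000 or more over all 18 libraries were left out. All values that entered this rule are therefore given as a description, with no test.

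D. salina is a unicellular alga that lives in brines and has no rigid cell wall. When the salt outside changes, the cell first shrinks or swells and then restores its volume by making or removing glycerol, its main compatible solute. Changes in the levels of many transcripts accompany this adjustment over the following hours.

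Total RNA came from cultured cells of strain CCAP 19/3 sampled at 0h, 4h and 24h of a salinity shift, with 3 libraries in each of 6 groups. The groups were H2L 0h, H2L 4h, H2L 24h, L2H 0h, L2H 4h and L2H 24h. No gene alteration or other treatment is given for any group. The titles and the condition field contradict each other, since samples titled H2L are given as moved from low to high salt and those titled L2H as moved from high to low salt. The arms are therefore named by their titles, and no direction of the shift is assigned to a result. The labels do not say how cultures were grown or divided, so the p-values cover the differences among the libraries at hand, and these may be technical. The 24h titles end in a different tag from the 0h and 4h titles, whose meaning the labels do not give, so anything that goes with that tag and the time itself cannot be told apart.

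The values are abundances scaled for length and depth, and the number of reads behind them is unknown, so no counting interval is given. The listed values of a library summed to between 749880 and 842410. Within a group, libraries 1 and 2 were more alike (r of 0.963 to 0.969 across transcripts on the log2 scale) than either was like the third (0.945 to 0.962). The third library also carries a title tag of its own in both arms. The closest library came from the same group for 15 of 18. The exceptions were the third libraries of L2H 0h and L2H 4h, which were closest to one another (r = 0.967), and that of H2L 0h, which was closest to the third of L2H 24h (r = 0.949). Results in L2H are therefore given with and without the third libraries.

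Of the 126 identifiers 0 were found in the RefSeq gene table for another strain of the species, as were 0 of all 43236. The transcripts are named by their identifiers, and no function is given to them. All 126 members passed the filter for testing, which asked for 3 or more libraries with a value of 1 or higher. Judged on the L2H libraries alone, 8 would not have passed.

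In H2L the members were moderately abundant transcripts that dropped late. Their median group mean was 21.3 at 0h, 21.0 at 4h and 7.52 at 24h. Over the 10716 transcripts with an H2L 0h mean of at least 10 and an overall mean under 1000, called comparably abundant below, the medians were 20.8, 21.1 and 19.3. The fall from 0h to 24h ranged from 2.004-fold to 28.6-fold with a median of 2.60, and it was under 3-fold in 81 members and 4-fold or more in 24. At 24h 41 members had a mean under 5 and 4 had a mean under 1. In bulk RNA, a lower level per cell and fewer cells holding the transcript cannot be told apart.

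**Figure D1:**
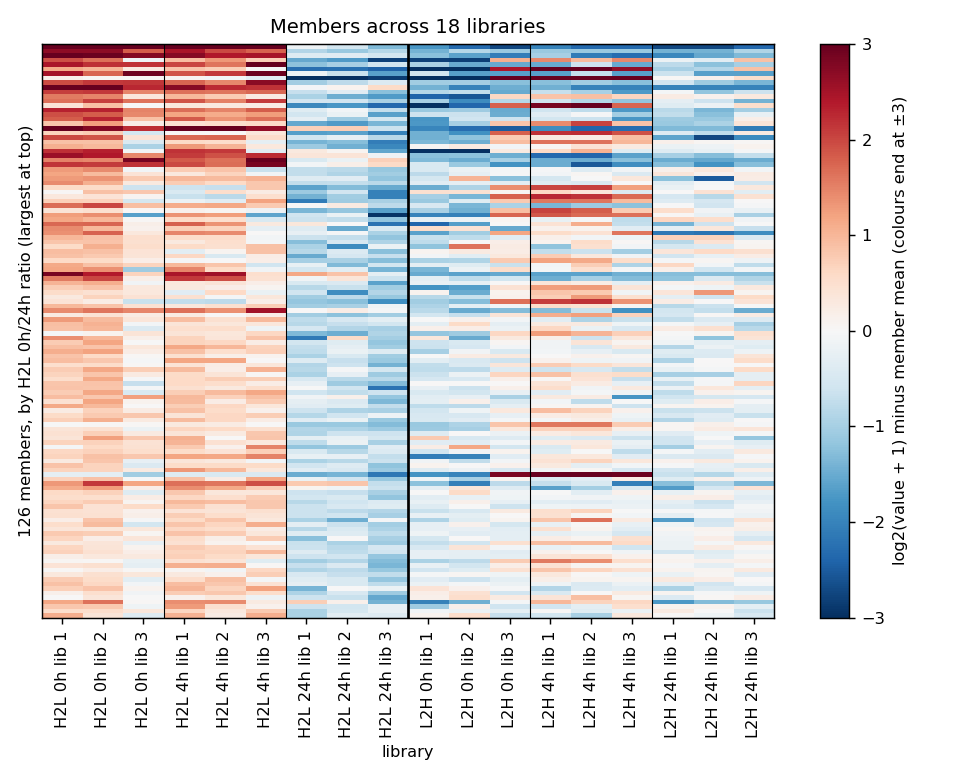
Each row is 1 of the 126 members and each column 1 of the 18 libraries, with colour for log2(value + 1) minus the member's mean over all libraries. The H2L 24h columns are the lowest of H2L by the choice of members, and in L2H the third libraries of 0h and 4h differ from libraries 1 and 2 of the same group.

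The fall was seen in most libraries one by one. The 3 libraries of H2L 24h lay below all 6 of 0h and 4h in 111 members (88.1%), against 7.45% of all transcripts tested and 13.8% of the comparably abundant ones, a count the rule largely fixes. Libraries with the same number showed a fall of at least 2-fold in 112 members for library 1, 112 for library 2 and 85 for library 3, and in every library for 65. The median log2 change from 0h to 24h was -1.50, -1.53 and -1.26. The third library of H2L 0h held the lowest of the 3 values in 106 members.

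The level at 4h was less uniform than its mean. The 4h to 0h ratio of means had a median of 0.942, with 26 members under 0.8 and 12 over its inverse of 1.25. Taken library by library, the median log2 change was -0.06 in library 1, -0.35 in library 2 and 0.30 in library 3, and the ratio stayed within 0.67 to 1.5 in each library in 60 members. A steady level at 4h is the usual state rather than a mark of the members, since 8788 of the 10716 comparably abundant transcripts (82.0%) met that bound.

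The largest fall was that of c9269_g1_i1. Its values were 131.87, 162.86 and 76.73 at H2L 0h, 117.67, 76.9 and 54.08 at 4h, and 4.99, 3.48 and 1.64 at 24h. It was close to absent in L2H, where its 9 values lay between 0 and 0.98. Its fall was 28.6-fold, and its 4h to 0h ratio of 0.672 was just over the lower bound of the rule.

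The next 4 falls were near 10-fold, and 3 of these transcripts were also almost absent in L2H. For c43486_g6_i1 the values were 16.08, 16.25 and 8.37 at 0h, 13.61, 9.61 and 8.09 at 4h, and 0.46, 0.23 and 0.48 at 24h (10.5-fold). For c54603_g1_i1 they were 46.33, 42.48 and 37.14, then 36.09, 28.9 and 30, then 3.27, 3.45 and 2.87 (10.2-fold). In both, every 24h library lay far below every earlier one, and no L2H value passed 1.81. For c55012_g1_i1 the 0h values were 14.46, 12.12 and 11.82, those at 4h were 10.36, 7.62 and 22.84, and those at 24h were 0.22, 0.44 and 0.91 (9.06-fold).

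The fifth, c36445_g1_i1, behaved differently in L2H. In H2L it read 37.2, 30.48 and 8.17 at 0h, 17.83, 23.67 and 15.29 at 4h, and 2.43, 2.07 and 0.43 at 24h (9.94-fold). In L2H it read 0.43, 0.42 and 19.97 at 0h, 25.98, 18.34 and 26.18 at 4h, and 7.79, 6.98 and 17.23 at 24h. Library 3 of L2H 0h thus sat at the 4h level while libraries 1 and 2 were near 0, and the change at 4h did not pass the test (log2 2.79, SE 0.77, adjusted p = 0.0625 with limma).

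The most abundant member at H2L 0h, c13735_g1_i1, held a large share of the summed signal in H2L. Its values were 2909.94, 2620.18 and 1350.35 at H2L 0h, 2127.04, 1857.39 and 2314.72 at 4h, and 638.44, 643.72 and 442.98 at 24h, a fall of 3.98-fold with no overlap. In L2H it was lower throughout, at 207.2, 209.49 and 176.78, then 97.53, 93.89 and 162.24, then 245.65, 203.64 and 301.34. Second by its H2L 0h mean, c16061_g1_i1 went from 754.9, 726.95 and 766.3 at H2L 0h through 665.09, 539.52 and 1213.86 to 158.21, 189.23 and 255.49 (3.72-fold). Its 9 L2H values lay between 27.99 and 122.82, below every H2L value.

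The other 3 of the 5 members with the highest H2L 0h means showed the third library apart. In c51260_g2_i1 the values were 308.26, 338.53 and 63.19 at H2L 0h, 302.33, 291.34 and 52.24 at 4h, and 81.31, 70.2 and 22.03 at 24h (4.04-fold), so the third library of 0h lay below libraries 1 and 2 of 24h. The same transcript read 3.07, 2.99 and 79.64 at L2H 0h, 101.86, 138.57 and 51.22 at 4h, and 50.65, 57.01 and 64.92 at 24h. Its L2H 24h to 0h ratio of 1.98 kept it in the set only through the third library of 0h. The transcript c20839_g1_i1 fell 2.49-fold, from 217.8, 224.64 and 157.17 through 202.36, 178.51 and 194.55 to 83.03, 98.96 and 56.64. In L2H it read 90.56, 112.03 and 196.75 at 0h and 259.59, 229.16 and 196.41 at 4h, with no change in library 3. The fifth, c313_g2_i1, fell 2.20-fold in H2L and is described with L2H.

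Summed over the 126 members, the signal was between 0.647% and 1.04% of the library total at H2L 0h, between 0.802% and 0.892% at 4h and between 0.228% and 0.301% at 24h. Without c13735_g1_i1 the ranges were 0.476% to 0.704%, 0.574% to 0.635% and 0.172% to 0.220%. In L2H the sum was 0.231%, 0.251% and 0.652% at 0h, 1.07%, 1.04% and 0.648% at 4h, and 0.316%, 0.325% and 0.361% at 24h. A few members weighed heavily in these sums. Without c313_g2_i1, c30669_g1_i1 and c13735_g1_i1, the L2H sum was 0.198%, 0.218% and 0.416% at 0h, 0.583%, 0.585% and 0.402% at 4h, and 0.267%, 0.282% and 0.300% at 24h. The median value of the members moved less, from 8.66, 9.78 and 12.8 at L2H 0h to 14.2, 14.5 and 12.015 at 4h and 9.99, 11.9 and 11.1 at 24h. In all 3 measures libraries 1 and 2 were highest at 4h, while the third library was slightly lower at 4h than at 0h.

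**Figure D2:**
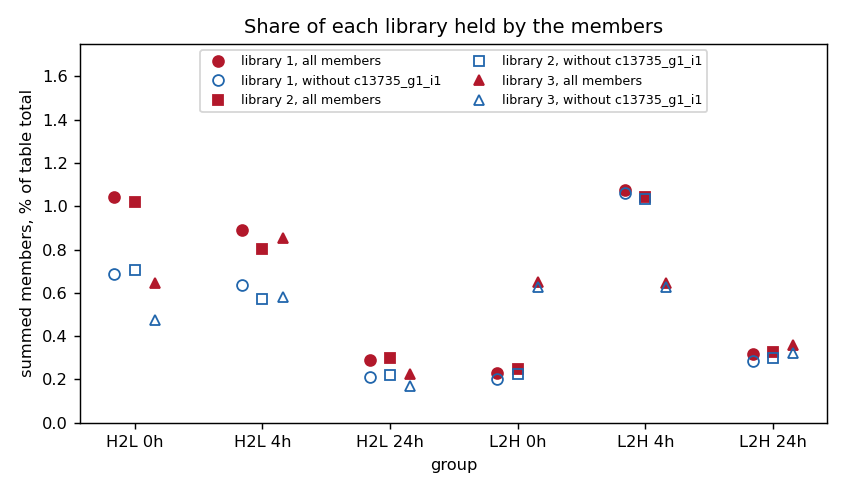
The vertical axis is the summed value of the 126 members as a percent of each library's total, with 1 point per library in the 6 groups, filled for all members and open without c13735_g1_i1. H2L falls to 0.228% to 0.301% at 24h, and in L2H libraries 1 and 2 reach 1.07% and 1.04% at 4h while library 3 stays at 0.652% and 0.648%.

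The L2H 4h group is the only one that no ratio in the rule uses, and the members were shifted upward there. Of 126 members 18 (14.3%) rose from L2H 0h to 4h with limma (adjusted p under 0.05 over all 34166 transcripts tested) and 0 fell. In either direction 48 had an unadjusted p under 0.05 with limma. No share of all transcripts tested is given for the unadjusted p. That count and the later ones of its kind are therefore a description only. Among all transcripts tested 1.17% were called higher and 1.07% lower, and among the comparably abundant ones 2.97% and 2.11%. The median log2 change of the members was 0.27, against -0.00 over all tested and 0.05 over the comparably abundant. By the ratio of means, 27 members were at least 2-fold higher at 4h (1.63% of all tested and 1.6% of the comparably abundant) and 0 were at least 2-fold lower (2.18% and 1.67%). The rule does bear on this contrast through L2H 0h, since it bounds the 24h to 0h ratio from above. Without the third library of L2H 0h, 21 of the 126 had a 24h to 0h ratio of 2 or more. A high value in that library thus admitted members that were higher at 24h than in libraries 1 and 2 of 0h. The counts above are set beside the background but do not stand free of the choice.

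The rise was carried by libraries 1 and 2. In the 18 members called higher, the change was positive in libraries 1 and 2 of all 18 and in library 3 of 11. Its size was 1.58 to 8.94 (median 2.79) on the log2 scale as the mean of libraries 1 and 2, and -0.24 to 0.36 (median 0.05) in library 3. In all 18, the third library's value lay between libraries 1 and 2 of 0h and those of 4h at both times. Across the 126 members the change in library 1 correlated with that in library 2 (r = 0.939), and their mean did not follow library 3 (r = 0.00092). These are correlations across transcripts, which are not independent and share their libraries.

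Leaving libraries out changed the count a great deal. With only libraries 1 and 2 of each group, 52 members were called higher and 5 lower, where 15.1% and 11.9% of all tested were. With only the third L2H libraries of 0h and 4h left out, 40 were called higher and 2 lower (7.83% and 6.3% of all tested). Without library 1 or library 2 of any single group, 0 members were called, with 38 to 47 at an unadjusted p under 0.05. In each of those fits at most 4 of all transcripts tested were called. Without the third library of L2H 0h 38 were called (9.72% of all tested), and without that of L2H 4h 31 (7.78%). With the library number as a block, with no trend in the prior variance, with only the groups compared or with the mean of libraries 1 and 2 as 1 library, 0 members were called, and at most 1 transcript of all tested was. The third L2H 0h library was at least 2 times each of libraries 1 and 2 in 28 members (22.2%, against 2.36% of all tested) and no more than 0.5 times each in 1 (1.91% of all tested). Among the comparably abundant transcripts these shares were 2.28% and 0.616%.

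**Figure D3:**
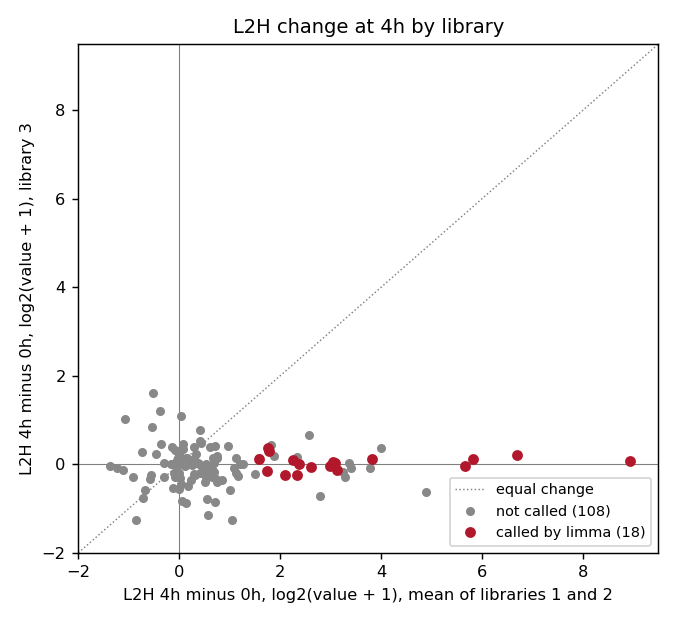
Each point is 1 of 126 members, with the L2H change from 0h to 4h on the log2 scale as the mean of libraries 1 and 2 (horizontal) and in library 3 (vertical). The 18 members called by limma, in red, spread from 1.58 to 8.94 along the horizontal axis and stay between -0.24 and 0.36 on the vertical one.

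The largest rise at L2H 4h was that of c30669_g1_i1. It read 0.58, 0.26 and 353.89 at L2H 0h, 718.8, 670.25 and 374.97 at 4h, and 26.72, 28.56 and 38.48 at 24h. Its log2 change at 4h was 5.99 (SE 1.31, adjusted p = 0.0388 with limma), with an upward direction in all 3 libraries but hardly any change in the third. In H2L the same transcript read 29.33, 27.31 and 27, then 27.78, 24.58 and 20.53, then 2.24, 2.4 and 2.79, an 8.31-fold fall. At 0h the H2L values lay above libraries 1 and 2 of L2H and far below the third. At 4h and 24h they lay below every L2H value.

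The second, c45868_g1_i1, had the same shape. Its L2H values were 1.45, 0.78 and 136.7 at 0h, 223.89, 206.15 and 158.18 at 4h, and 11.79, 12.89 and 45.91 at 24h (log2 change at 4h 4.53, SE 1.05, adjusted p = 0.0407 with limma). Its H2L values were 55.56, 51.29 and 29.84, then 45.27, 41.85 and 24.42, then 4.33, 4.4 and 3.78 (9.01-fold). The decline from L2H 4h to 24h was not called in either of the pair (adjusted p = 0.11 for c30669_g1_i1 and 0.118 for c45868_g1_i1 with limma).

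The third, c313_g2_i1, was the only one of these 3 that was called in both steps. It read 51.62, 45.69 and 1295.97 at L2H 0h, 2906.49, 2683.1 and 1412.35 at 4h, and 114.31, 99.75 and 138.44 at 24h. Its log2 change was 3.92 from 0h to 4h (SE 0.81, adjusted p = 0.0384) and -4.24 from 4h to 24h (SE 0.81, adjusted p = 0.0121 with limma). In H2L it read 150.09, 149.9 and 87.62 at 0h, 139.67, 131.75 and 134.56 at 4h, and 64.89, 69.05 and 40.26 at 24h, so its highest L2H value was many times any of its H2L values. Each of these 3 calls at 4h was lost in 16 of 30 alternative fits, with adjusted p up to 0.937, and the direction did not turn in any of the 30.

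The other 15 members called higher at L2H 4h changed by 1.09 (c46135_g1_i1) to 3.77 (c43073_g4_i1) on the log2 scale. The smallest rise, in c46135_g1_i1, went from 11.06, 11.99 and 26.83 to 35.75, 37.22 and 29.21 (adjusted p = 0.0426 with limma). The largest of them, in c43073_g4_i1, went from 0, 0.59 and 27.35 to 58.49, 68.33 and 26.72 (SE 0.80, adjusted p = 0.0384 with limma). In both, the third library of 0h already stood at or near that of 4h. Over all 18, the libraries of 4h lay above those of 0h without overlap in 11. Of all members this held for 26, against 6.87% of all tested and 11.4% of the comparably abundant, and the reverse for 6, against 9.77% and 9.73%.

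From 4h to 24h in L2H more members moved down than up. The rule bears on this contrast too, since its upper bound on L2H 24h to 0h favours low values at 24h, so the counts below are set beside the background but do not stand free of the choice. The comparison also shares the L2H 4h libraries with the former one, so the pair are not independent. Of 126 members 9 fell (0.741% of all tested were called lower) and 2 rose (1.88% called higher), with 39 at an unadjusted p under 0.05 with limma. Among the comparably abundant transcripts the shares were 1.32% lower and 3.16% higher. The median log2 change of the members was -0.23, against 0.03 over all tested and 0.05 over the comparably abundant. By the ratio of means 25 members were at 0.5 or under (1.67% of all tested and 1.25% of the comparably abundant) and 3 at 2 or over (1.82% and 1.47%). The libraries of 4h lay above those of 24h without overlap in 39 members (7.98% of all tested and 9.87% of the comparably abundant) and below them in 6 (11.2% and 15.5%).

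Of the 9 that fell, c58911_g1_i1 and c57915_g1_i1 followed c313_g2_i1 in size. The values of c58911_g1_i1 were 6.4, 9.82 and 49.83 at L2H 0h, 31.66, 29.15 and 67.3 at 4h, and 4.06, 3.79 and 5.11 at 24h (log2 change from 4h to 24h -2.94, SE 0.58, adjusted p = 0.014 with limma). Those of c57915_g1_i1 were 3.01, 3.73 and 17.25, then 12.31, 11.7 and 19.17, then 2.64, 0.64 and 1.93 (-2.54, SE 0.52, adjusted p = 0.0162 with limma). In both, all 3 libraries of 24h lay below all 3 of 4h, including the third. In H2L c58911_g1_i1 went from 57.19, 74.79 and 27.04 through 61.18, 59.09 and 21.41 to 17.76, 20.77 and 10.66, and c57915_g1_i1 from 41.5, 38.82 and 13.7 through 34.83, 35.14 and 14.79 to 6.28, 8.15 and 5.13. These transcripts were thus lower at 24h than at 4h in both arms.

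The other 6 that fell ranged from -1.08 (c54811_g1_i1) to -2.34 (c57661_g1_i1) on the log2 scale. Of the 9, c313_g2_i1, c50436_g1_i1 and c54811_g1_i1 had also been called higher at 4h. In c54811_g1_i1 the L2H values were 18.41, 16.7 and 35.98 at 0h, 59.88, 65.58 and 44.73 at 4h, and 19.17, 27.93 and 32.66 at 24h. Its rise was 1.29 (SE 0.23, adjusted p = 0.0384) and its fall 1.08 in size (adjusted p = 0.0203 with limma), with all 4h libraries above all others. In c50436_g1_i1 they were 8.2, 14.33 and 53.04, then 80.72, 122.63 and 54.27, then 12.97, 14.7 and 39.09.

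The 2 members that rose from L2H 4h to 24h were c13735_g1_i1 and c35521_g1_i1. For c13735_g1_i1, whose L2H values are given above, the log2 change was 1.11 (SE 0.26, adjusted p = 0.0352 with limma). It had been lower at 4h than at 0h by 0.78, which was not called (adjusted p = 0.117 with limma). For c35521_g1_i1 the L2H values were 6.27, 7.21 and 6.96 at 0h, 3.11, 3.38 and 2.35 at 4h, and 7.75, 9.37 and 8.58 at 24h (log2 change from 4h to 24h 1.28, SE 0.26, adjusted p = 0.0169 with limma). The 4h libraries lay below those of 0h and 24h without overlap, but the difference from 0h to 4h was not called (log2 change -0.99, adjusted p = 0.0558 with limma). In H2L c35521_g1_i1 read 12.08, 11.47 and 8.09, then 4.46, 6.23 and 11.61, then 2.86, 4.14 and 1.88.

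The count at 24h also moved with the third libraries. With only libraries 1 and 2, 45 members were called lower and 6 higher (6.33% and 10.3% of all tested). With the third L2H libraries of 0h and 4h left out, 31 were called lower and 2 higher (2.9% and 4.45%). Without library 1 of L2H 4h or library 2 of L2H 24h 0 members were called (0.322% and 0.574% of all tested). In these fits 30 and 34 members were at an unadjusted p under 0.05 with limma. Without library 2 of L2H 4h or library 1 of L2H 24h 1 was called (0.441% and 0.672% of all tested). Without the third library of L2H 0h the count was 26 (3.91% of all tested). Of the named members, the call was lost in 4 of 30 alternative fits for c57915_g1_i1 and c58911_g1_i1, in 5 for c313_g2_i1 and c35521_g1_i1 and in 9 for c13735_g1_i1, and the direction turned in 0 of them.

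**Figure D4:**
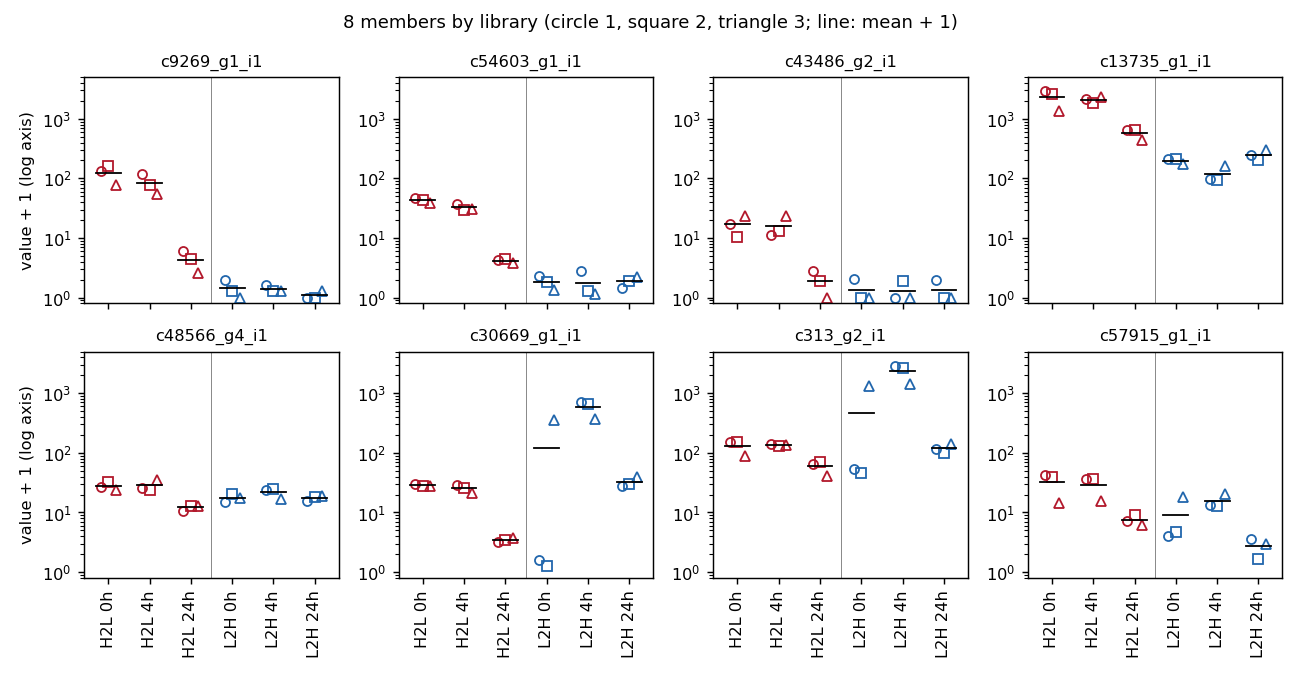
Values plus 1 on a log axis for 8 members in the 6 groups, with a circle, square or triangle for libraries 1, 2 and 3 and a line at the group mean plus 1. The third library (triangle) of c30669_g1_i1 and c313_g2_i1 at L2H 0h, 353.89 and 1295.97, sits near its 4h value, while c9269_g1_i1, c54603_g1_i1 and c43486_g2_i1 stay near 0 throughout L2H.

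The working name of the set, a late fall in H2L alone, holds only in part. The bound on L2H left out rises and not falls, and it removed only 10 of the 136 transcripts that met the other criteria. The L2H 24h to 0h ratio was between 0.67 and 1.5 in 102 members, with a median of 1.04, and at 0.5 or under in 4 (1.84% of all tested and 0.812% of the comparably abundant). These 4 were c58911_g1_i1 (0.231), c313_g2_i1 (0.255), c30669_g1_i1 (0.270) and c57915_g1_i1 (0.304). In libraries 1 and 2 alone 0 of these 4 were at 0.5 or under, so each of these falls came with a high value in library 3 of L2H 0h. In those libraries c30669_g1_i1 rose from 0.58 and 0.26 at L2H 0h to 26.72 and 28.56 at 24h. Likewise c313_g2_i1 rose there from 51.62 and 45.69 to 114.31 and 99.75. By contrast, c58911_g1_i1 fell from 6.4 and 9.82 to 4.06 and 3.79, and c57915_g1_i1 from 3.01 and 3.73 to 2.64 and 0.64. In libraries 1 and 2 alone, 4 other members were at 0.5 or under, which were c50149_g2_i1 (0.220), c43677_g2_i1 (0.411), c39964_g1_i1 (0.455) and c67222_g1_i1 (0.483). Over 3 libraries their ratios were 0.560, 0.535, 0.586 and 0.814. Conversely, 21 members, c30669_g1_i1 and c313_g2_i1 among them, had a ratio of 2 or more in libraries 1 and 2, which the rule would have left out. The members whose L2H ratio was nearest 1 were c48566_g4_i1 and c48303_g3_i2. In c48566_g4_i1 the values were 14.21, 19.2 and 16.65 at L2H 0h and 14.72, 17.29 and 18.1 at 24h, whereas H2L went from 26.25, 31.62 and 23.07 to 9.66, 11.94 and 12.06. In c48303_g3_i2 they were 7.35, 7.65 and 5.63 at L2H 0h and 7.87, 9.48 and 3.25 at 24h, and H2L went from 12.76, 13.94 and 4.58 to 4.3, 3.08 and 2.76.

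At 0h the arms already differed in many members. The mean at H2L 0h was at least 2 times that at L2H 0h in 48 members (38.1%, against 3.6% of all tested and 2.84% of the comparably abundant). The arms were within 2-fold in 76, and L2H was at least 2 times higher in 2, c30669_g1_i1 and c313_g2_i1 (2.23% and 0.868%). In both, the higher mean came from the third library of L2H 0h (353.89 and 1295.97). Libraries 1 and 2 of L2H 0h lay below every H2L 0h value of the same transcript. All H2L 0h libraries lay above all L2H 0h libraries in 57 members (13.3% of all tested and 21.2% of the comparably abundant) and below them in 0 (12.8% and 11.1%). The members were chosen for a high H2L 0h relative to H2L 24h, so part of this difference is set by the choice. The median group mean of the members was 11.02 at L2H 0h, 14.0 at 4h and 10.6 at 24h.

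By 24h the order of the arms had turned in many members, with the fall in H2L set by the rule. The H2L and L2H means at 24h were within 2-fold in 85 members (67.5%), a smaller share than the 95.6% of all tested and 97.1% of the comparably abundant, with L2H at least 2 times higher in 29 and H2L in 12. At 4h H2L was at least 2 times higher in 36 members and L2H in 13. For these counts and the 29 and 12 at 24h no share of all tested is given, so they are a description only. All H2L 4h libraries lay above all L2H 4h libraries in 58 members (21% of all tested and 24.6% of the comparably abundant) and below them in 20 (16.9% and 24.1%). All L2H libraries lay above all H2L libraries at 24h in 53 members (15.4% of all tested and 25.4% of the comparably abundant) and below them in 13 (10.3% and 10.3%). The median H2L to L2H ratio of the members went from 1.77 at 0h through 1.53 at 4h to 0.701 at 24h.

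**Figure D5:**
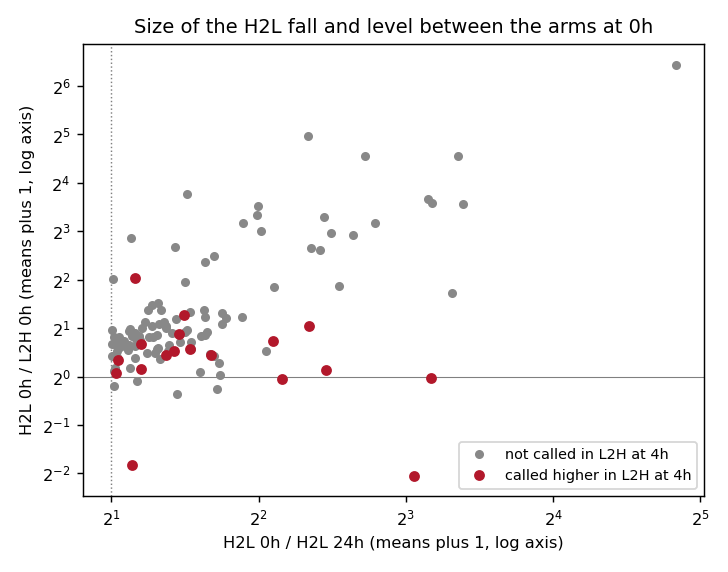
Each point is 1 of 126 members, with the H2L 0h to 24h ratio (horizontal) and the H2L to L2H ratio at 0h (vertical), both from means plus 1 on log axes, and red for those called higher at L2H 4h. The 48 members at or above 2 on the vertical axis reach falls of up to 28.6-fold, and both axes share the H2L 0h mean. The transcripts c30669_g1_i1 and c313_g2_i1 lie below 0.5 through the third library of L2H 0h alone.

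The members fell into parts by their L2H level, which is a description after the fact. The 48 members at least 2-fold higher in H2L at 0h had a median fall of 3.37-fold, the 76 within 2-fold one of 2.30-fold. The H2L 0h mean enters both the grouping and the fall, so the pair of medians is not an independent comparison. Of the members called higher at L2H 4h, 13 were among the 76, 3 among the 48, and the pair with a higher L2H 0h mean made up the rest. At one end were 12 members with every L2H group mean under 2, of which 9 were under 1. Their median mean was 13.0 at H2L 0h, 13.2 at 4h and 1.77 at 24h, and their median fall was 6.76-fold. Their low L2H level is what set them apart, so no test in L2H is read for them. Beside the members named above, the 12 included c52085_g1_i1, which went from 37.78, 34.07 and 18.38 at H2L 0h through 25.85, 17.92 and 17.14 to 2.79, 3.33 and 4.99, with 9 L2H values between 0 and 0.5.

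The H2L to L2H ratio at 0h was highest in c9269_g1_i1 (87.1) and next in c63893_g1_i1 (31.1). The latter read 124.81, 99.02 and 67.08 at H2L 0h, 157.03, 123.48 and 90.65 at 4h, and 23.06, 23.66 and 8.5 at 24h (5.05-fold). Its L2H values were 2.77, 2.04 and 1.63, then 3.05, 1.83 and 2.04, then 4.85, 4.87 and 2.42. Its groups did not overlap between the arms at any time, though at 24h the lowest H2L value came within 2-fold of the highest L2H value.

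Some members share the first part of their identifier. There were 5 first parts shared by 2 or more members, with 13 members in all, and 63 members were the only row under their first part. Rows that share it may be pieces or variants of one sequence and may share reads, so they are not separate observations. The first part c43486 held 5 members among 9 rows. These were c43486_g2_i1, c43486_g4_i1, c43486_g5_i2, c43486_g6_i1 and c43486_g7_i1, whose H2L 0h means lay between 10.4 and 26.7 and whose falls were 2.42-fold to 10.5-fold. All 5 had L2H means under 5. A sixth row, c43486_g1_i1, had H2L means of 59.8 at 0h, 24.4 at 4h and 0.963 at 24h, a fall of 31.0-fold, and was left out because it was already lower at 4h (ratio 0.418).

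The pair under c43027 had one shape and was called in both rows. In L2H c43027_g1_i2 read 33.12, 30.66 and 166.18 at 0h, 269.71, 270.12 and 173 at 4h, and 95.39, 89.32 and 88.95 at 24h (log2 change at 4h 2.05, SE 0.49, adjusted p = 0.0428 with limma). The other row, c43027_g2_i1, read 37.19, 26.6 and 138.84, then 305.24, 261.93 and 126.21, then 107.6, 68.52 and 63.18 (2.04, SE 0.43, adjusted p = 0.0384 with limma). In H2L they fell 4.28-fold and 3.20-fold. The rows c43487_g1_i1 and c43487_g2_i2 had the same shape in L2H without being called (adjusted p = 0.0571 and 0.0534 with limma).

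At the edge of the rule the values did not separate members from other transcripts. Just inside were c21369_g2_i1 and c40004_g1_i1, whose smaller fall to 24h was 2.004-fold in each. The former read 20.93, 12.46 and 6.9 at H2L 0h, 20.17, 11.15 and 21.03 at 4h, and 4.35, 7.31 and 6.94 at 24h, so that its 0h and 24h libraries overlapped. The latter read 39.66, 50.94 and 38.97, then 43.14, 49.99 and 35.14, then 25.22, 24.33 and 12.94, with no overlap. Just outside were c9109_g1_i1, at 7.94, 14.63 and 10.15, then 12.59, 9.86 and 11.77, then 4.98, 5.93 and 3.99, and c68287_g1_i1, at 16.19, 15.08 and 14.78, then 15.15, 14.96 and 32.71, then 8.1, 4.12 and 9.38. The smaller fall of c68287_g1_i1 was 1.99-fold, and in both transcripts the 24h libraries lay below all others, although the rule left them out. Membership also depended on single libraries, since 28 of the 126 met the rule under each of 18 omissions of 1 library.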

How the data were processed

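RNA was sequenced from 18 libraries of D. salina CCAP 19/3. The submitters' processing notes name the tools FastQC, Bowtie2 and RSEM without versions. The authors deposited 1 table of a signal per transcript, an abundance relative to length and depth. Which such unit it is was not given in the sources used here. Columns were matched to samples by title, and 0 columns belonged to no sample. The depth in reads is unknown.

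The members, the lists and the tests were chosen with earlier results of these data known. The rule was applied to group means plus 1 in Python 3.11.15 with pandas 2.3.3 and numpy 2.4.6. Figures were drawn with matplotlib 3.10.9. Values were taken as log2(value + 1), so changes of low transcripts appear smaller than they are. On the 34166 transcripts that reached 1 in 3 or more libraries, 6 group means were fitted to the 18 libraries by limma 3.58.1 (R 4.3.3), with a mean-dependent prior variance. P-values were two-sided and adjusted by the Benjamini-Hochberg method over all of them, and calls were made under 0.05. Only L2H 4h minus 0h and L2H 24h minus 4h were tested. The H2L contrasts and L2H 24h to 0h are ratios of the rule, and the arms were compared as a description, since the rule chose members on their H2L levels. L2H 0h and 24h enter the rule through an upper bound. The script was tested on simulated data.

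Named members were the 5 largest falls, the 5 highest H2L 0h means, the 3 largest calls in each direction of each test, the extremes of the ratio of the arms at 0h and of the L2H 24h to 0h ratio, those nearest 1 in the latter, those at the edge of the rule, and the 2 most shared first parts. Other named transcripts were chosen after their values were seen. Gene lists planned for glycerol metabolism, ion transport, photosynthesis, ribosomes and chaperones were not used, because 0 identifiers carried a name, and no sequences are printed for the same reason. Alternatives changed the scaling, pseudocount, filter, trend, libraries and block.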

Additional observations from a re-analysis of the deposited data

Results flagged for a closer look

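Among the members named by rule, 2 had arms whose libraries moved in opposite directions without overlap between the times compared. Over all 126 members, 5 did so from 4h to 24h and 7 from 0h to 24h, all with L2H up and H2L down. No share over all transcripts is given for these counts, so they are not read as a trait of the members. The L2H rise from 4h to 24h without overlap held in 4.76% of members. It held in 11.2% of all tested and 15.5% of the comparably abundant. The H2L side was fixed by the choice of members, and the difference between the arms was not tested. From 4h to 24h c13735_g1_i1 changed by 1.08 in L2H and by -1.87 in H2L on the scale of log2(mean + 1), a difference of 2.95. Over the same interval c35521_g1_i1 changed by 1.28 in L2H and by -1.09 in H2L, a difference of 2.37. From 0h to 24h c35521_g1_i1 changed by 0.29 in L2H and by -1.54 in H2L, a difference of 1.84.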

How the results depend on the processing

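Of 126 members 18 were called in L2H 4h minus 0h. The share of all transcripts tested that were called was 2.24%. The count was 31 with a minimum value of 10 (10.2% of all tested), 57 with libraries 1 and 2 only (27.1%) and 42 with the third L2H libraries of 0h and 4h left out (14.1%), an alternative chosen after seeing the data. It was 0 with no trend (44 at an unadjusted p under 0.05), with only the groups compared (48), with the mean of libraries 1 and 2 used as 1 library (25) and with a replicate block (52). Without 1 library it lay between 0 and 38 (0% to 9.72% of all tested), where omissions outside the groups compared were also chosen after seeing the data. Quantile and upper-quartile scaling, pseudocounts of 0.1 and 5 and no filter gave 16 to 20 (1.3% to 2.49%).

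In L2H 24h minus 4h 11 were called (2.62% of all tested). The count was 7 with no trend (1.88%), 18 with only the groups compared (1.35%), 0 with that mean (19 at an unadjusted p under 0.05), 51 with libraries 1 and 2 only (16.6%), 33 with the third L2H libraries of 0h and 4h left out (7.35%), and 14 with a replicate block (3.21%). Without 1 library it lay between 0 and 26, where 0.322% to 5.51% of all tested were called. The other alternatives gave 8 to 15 (1.72% to 6.58%). Whether the numbers pair the libraries is not stated in the labels, though the third libraries of L2H 0h and 4h share a title tag and were closest to one another. The block was planned as an alternative, and same-numbered deviations from the group means correlated at -0.05, -0.04 and -0.18 in the first contrast and at 0.08, 0.06 and 0.15 in the second. Differently numbered deviations correlated at -0.10 to 0.12 in the first and at -0.12 to 0.05 in the second. These values do not settle whether the libraries are paired.

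The rule gave 126 members. It gave 93 after quantile scaling (89 of them among the 126) and 96 after upper-quartile scaling (91 among the 126). A pseudocount of 0.1 gave 138 (115 among the 126) and one of 5 gave 67 (54 among the 126). Libraries 1 and 2 only gave 147, of which 75 were among the 126. Without 1 library the rule gave 102 to 167, with 86 to 126 among the 126. Members at 0.5 or under for L2H 24h to 0h numbered 4, or 9 with a pseudocount of 0.1 and 3 to 10 without 1 library. No named call reversed its direction. The cause of these changes was not tested. The unknown depth limits what can be said of values near 0.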
